A study of Mus musculus with 72 samples.

Results

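Regional gene expression was compared between the hippocampus and the cerebral cortex of mice at P84 (P, postnatal day). The comparison used 10 of the 72 arrays of the series, 5 of each region, which were all the P84 arrays of both regions except the disomic replicate 3 array of each, whose signals were dim. Each region was represented by 3 Ts1Cje mice and 2 disomic littermates. Ts1Cje is a mouse model of Down syndrome that carries an extra copy of a segment of chromosome 16 from *Sod1* to *Zbtb21*, joined to chromosome 12 by a translocation that also removes a small end segment of that chromosome. The disomic mice, called wildtype in the sample titles, lack this chromosome, and both genotypes were littermates from Ts1Cje fathers and C57BL/6 mothers. The methods give 3 mice of each genotype per age as the source of all regions, so both regions came from the same mice, but no source says that a replicate number marks a mouse. Every animal is labelled female and no treatment is named. On all 10 arrays, however, *Xist*, the RNA that silences an X chromosome in females, lay at 2.14 to 2.56 (log2) and the Y-linked *Eif2s3y* at 7.41 to 8.36. These levels go against the sex on the labels, on the arrays of both regions alike.

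The values are the authors' gcRMA expression values on the log2 scale, on which a difference of 1 is a 2-fold ratio. The upper quartile of the 10 arrays ran from 5.71 to 5.88, against 5.23 and 5.51 on the dim cortex and hippocampus arrays that were left out. The disomic hippocampus replicate 2 array stood apart. Its highest correlation with any other array was 0.988, the lowest of the 10, and it held the highest levels of the cerebellar genes *Gabra6* (4.77) and *Pcp2* (5.99), which Ts1Cje hippocampus replicate 3 also held at 4.55 and 5.67. On the 3 other hippocampus arrays *Gabra6* lay at 1.86 to 2.82 and *Pcp2* at 3.01 to 4.09, and on the 5 cortex arrays at 1.86 to 2.23 and 3.12 to 3.30. These genes were chosen after their values had been seen, and their part in the results was not tested. The counts of called genes were repeated without the disomic hippocampus replicate 2 array, and repeats that moved a list by several genes are given beside it. In bulk tissue, fewer cells of a type and less RNA per cell cannot be told apart.

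The hippocampus is an infolded part of the cortical sheet in which the cell bodies of the principal neurons form a single layer. It is made of the dentate gyrus and the fields CA3, CA2 and CA1, each with its own class of excitatory neuron. Granule cells of the dentate gyrus send mossy fibres to CA3 pyramidal cells, which project to CA1. The rest of the cerebral cortex sampled here is mostly neocortex, with excitatory neurons of the upper layers that connect cortical areas and neurons of the deep layers that project to subcortical targets. Both tissues share the main classes of inhibitory interneurons and glia.

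The promoters of 4 genes are shown because the difference between the regions was wide and arose after birth for each, toward the hippocampus for *Dsp* and *C1ql2* and toward the cortex for *Lamp5* and *Cckbr*. Each window runs from 250 bases before to 50 bases after an annotated start, 5′ to 3′ on the strand of the gene, from RefSeq on build GRCm38.p6, and all 4 genes lie on the + strand. Capitals mark the E-box sequences CAGATG and CACCTG on either strand (CATCTG and CAGGTG read on the other strand), which basic helix-loop-helix factors and some zinc finger factors can recognise. The windows are those at chr13:38151044-38151343 for *Dsp*, chr1:120340332-120340631 for *C1ql2*, chr2:136052089-136052388 and chr2:136057498-136057797 for starts 1 and 2 of *Lamp5*, and chr7:105425481-105425780 for *Cckbr*.
Dsp: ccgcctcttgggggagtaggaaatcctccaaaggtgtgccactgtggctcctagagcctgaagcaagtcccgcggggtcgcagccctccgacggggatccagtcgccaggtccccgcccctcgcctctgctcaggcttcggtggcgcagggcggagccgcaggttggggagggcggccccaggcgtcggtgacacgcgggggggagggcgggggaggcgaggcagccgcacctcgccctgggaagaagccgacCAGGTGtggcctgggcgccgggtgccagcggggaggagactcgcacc
C1ql2: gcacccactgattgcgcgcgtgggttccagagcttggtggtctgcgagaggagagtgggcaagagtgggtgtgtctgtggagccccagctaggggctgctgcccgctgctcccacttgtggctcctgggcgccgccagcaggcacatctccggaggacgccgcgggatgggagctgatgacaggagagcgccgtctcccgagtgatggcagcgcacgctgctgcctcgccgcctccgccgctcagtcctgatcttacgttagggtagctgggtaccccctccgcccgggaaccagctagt
Lamp5 start 1: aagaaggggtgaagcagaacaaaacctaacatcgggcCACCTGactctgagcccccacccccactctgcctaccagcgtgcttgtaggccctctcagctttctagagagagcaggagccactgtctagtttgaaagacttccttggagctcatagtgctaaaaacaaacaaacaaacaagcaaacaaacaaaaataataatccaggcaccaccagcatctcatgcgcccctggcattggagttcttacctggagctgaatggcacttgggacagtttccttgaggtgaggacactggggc
Lamp5 start 2: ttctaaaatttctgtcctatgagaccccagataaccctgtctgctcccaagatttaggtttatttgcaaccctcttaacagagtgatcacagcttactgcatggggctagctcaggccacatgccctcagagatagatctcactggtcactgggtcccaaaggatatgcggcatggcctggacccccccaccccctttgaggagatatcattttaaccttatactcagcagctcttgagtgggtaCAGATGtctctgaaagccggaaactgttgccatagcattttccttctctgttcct
Cckbr: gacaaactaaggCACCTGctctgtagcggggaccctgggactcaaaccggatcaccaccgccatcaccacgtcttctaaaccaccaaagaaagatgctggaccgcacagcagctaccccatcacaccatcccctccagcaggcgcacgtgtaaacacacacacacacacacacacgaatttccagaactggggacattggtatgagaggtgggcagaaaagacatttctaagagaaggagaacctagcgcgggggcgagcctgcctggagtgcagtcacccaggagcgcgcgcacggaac
The *Dsp* window, the window of *Lamp5* start 1 and the *Cckbr* window each held 1 CACCTG, that of start 2 held 1 CAGATG and the *C1ql2* window held neither. Among all 32851 windows in the table, 17.2% held CAGATG and 20.2% held CACCTG. The shares were 14% and 18.5% among 724 windows of genes higher in the hippocampus, and 12.9% and 21.6% among 999 windows of genes lower there. A match is a description of the sequence only.

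A probe set was called different when its moderated t in limma was at least 4 or at most -4 and its Benjamini-Hochberg adjusted p was at most 0.05 over all probe sets, with genotype as a term in the fit. Of the 45101 probe sets, 1237 were higher (2.74%) and 1688 were lower (3.74%) in the hippocampus, 6.49% in both directions together. Without the disomic hippocampus replicate 2 array the counts were 1767 and 1989. With 1 probe set taken for each of 18194 genes, the one with the highest mean, 677 genes were higher (3.72%) and 914 were lower (5.02%), and the median difference over all genes was -0.0035. The 5 arrays of one region all lay above the 5 of the other for 1880 genes, or 10.3%. Differences of at least 2 (log2) were found for 58 called genes toward the hippocampus and 79 toward the cortex, and of at least 4 for 10 and 5. The percentages of genes called are the background for each list of genes counted here.

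The leading genes, 15 toward each region by size of the difference among called genes with no overlap of arrays and a mean of at least 8 (log2) in the higher region, included desmosomal, synaptic and calcium signalling genes toward the hippocampus. Toward the cortex they included genes of the cytoskeleton, transcription and synaptic release. *Dsp*, which encodes the desmosomal plaque protein desmoplakin, lay at 8.45, 8.61, 7.81, 8.75 and 9.09 on the hippocampus arrays (Ts1Cje replicates 1 to 3, then disomic replicates 1 and 2, an order used throughout) and at 2.33, 2.27, 2.18, 2.29 and 2.49 on the cortex arrays. The difference was 6.23 (standard error 0.17, adjusted p = 4.39e-08), and the groups were far apart. The cortex level lay below the medians of the arrays (3.23 to 3.28), where a gene is not shown to be above background, so the size of the difference is not known. The same holds, among the other genes named, for the cortex levels of *Spink8*, *Lct*, *Npy2r*, *Lhx9*, *Htr4*, *Epha6*, *Nts* and *Mdga1* and for the hippocampus levels of *Coch*, *Foxp2*, *Sema3a*, *Rspo1*, *Dkkl1*, *Grm8*, *Oprk1*, *Myl4* and *Tnnc1*. *Pkp2*, another desmosomal plaque gene, was higher in the hippocampus by 4.8 (8.44 ± 0.33 against 3.64 ± 0.24, SD, n = 5 each). *C1ql2*, which encodes a secreted protein of mossy fibre synapses, lay at 8.30, 7.67, 8.29, 8.21 and 7.81 in the hippocampus and at 2.23, 2.22, 2.21, 2.57 and 2.43 in the cortex, again below the array medians. The difference of 5.72 had a standard error of 0.15. *Fibcd1*, a gene of CA1 neurons that encodes a membrane receptor for acetylated sugars, lay at 9.0, 8.64, 8.26, 8.72 and 8.72 against 3.72, 3.71, 3.47, 3.56 and 3.38. All its hippocampus arrays exceeded its cortex arrays by more than 4 (log2).

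Among the other leading genes toward the hippocampus, *Shisa6*, which encodes an auxiliary subunit of AMPA receptors, was higher by 4.71 (9.74 ± 0.32 against 5.04 ± 0.24, SD, n = 5 each). The calcium sensor of vesicle fusion *Doc2b* was higher by 4.26, the calcium-binding protein gene *Cabp7* by 4.22 and the copine gene *Cpne7* by 3.97. The protocadherin gene *Pcdh20* (3.57), the postsynaptic scaffold gene *Tanc1* (3.49), the T-type calcium channel gene *Cacna1h* (2.88) and the recycling motor gene *Myo5b* (2.88) followed. *Wipf3*, a partner of WASP proteins in actin assembly, was higher by 2.51.

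Toward the cortex the largest difference of the 15 was that of *Fhod3*, which encodes an actin-organising formin. It lay at 3.81, 3.38, 4.28, 3.51 and 4.34 in the hippocampus and at 8.41, 8.69, 8.64, 8.23 and 8.64 in the cortex, lower by 4.66 (standard error 0.20, adjusted p = 7.66e-07). *Cobl*, an actin nucleator, was lower in the hippocampus by 4.41 at 1 of its 2 probe sets, the other not being called. *Lamp5*, a neuronal member of the lysosome-associated membrane protein family, lay at 7.82, 7.50, 7.82, 7.83 and 7.92 in the hippocampus and at 10.72, 10.57, 10.66, 10.75 and 10.73 in the cortex. Its arrays hardly varied within a region, and the difference of -2.91 had a standard error of 0.087. The transcription factor gene *Mef2c* lay at 10.53, 9.76, 9.96, 10.33 and 10.21 against 12.61, 12.65, 12.35, 12.51 and 12.35, was lower by 2.34 and was called at all 5 of its probe sets. Lower levels were also found for *Rasgef1b*, a Ras exchange factor (-3.20), *Rims3*, an active zone protein (-2.98), *Pdzrn3*, a ubiquitin ligase (-2.91), *Plcb4*, a phospholipase C (-2.41), *St6gal2*, a sialyltransferase (-2.46) and *Epop*, a partner of Polycomb proteins (-2.58). *Ipcef1* (-2.88) and *Garnl3* (-2.86) were lower as well. The other leading genes toward the cortex, *Crh*, *Dpp10* and *Cux2*, are described with their gene lists. All 30 leading genes remained called under each of the 25 alternative settings. Their selection as called genes with large differences and no overlap makes a lost call unlikely in advance. Not every probe set of these genes was called, with *Ipcef1* called at 1 of 3, *Rims3*, *Pdzrn3* and *Cacna1h* at 1 of 2, *Dsp*, *Myo5b* and *Cux2* at 2 of 3, *Pkp2* at 3 of 4 and *Plcb4* at 4 of 5. No gene named for this comparison had probe sets called in opposite directions.

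**Figure D1:**
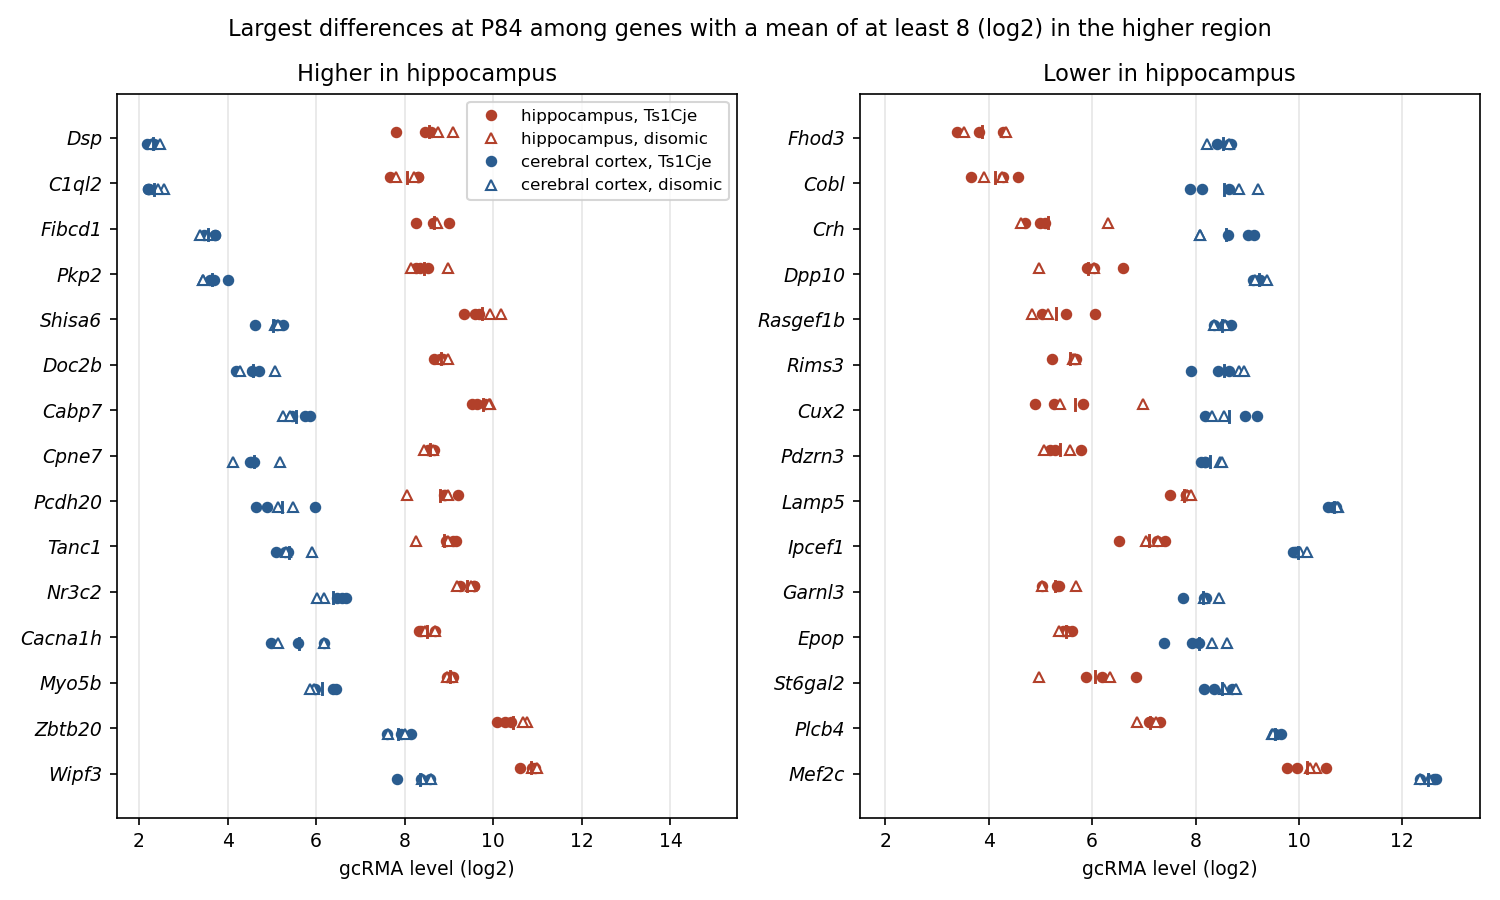
Expression (gcRMA, log2, horizontal axes) of the 15 leading genes toward the hippocampus (left) and the 15 toward the cortex (right) at P84, by size of the difference among called genes without overlap and with a mean of at least 8 in the higher region, each point 1 array, filled circles for Ts1Cje, open triangles for disomic and short lines for the region means. For each gene the 5 hippocampus arrays lie apart from the 5 cortex arrays, by the widest margin for *Dsp* (means 8.54 and 2.31).

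Markers of the hippocampal fields and of the cortical layers were set beside the labels of the tissues. The lists were chosen with earlier results of these data known, so they are not an independent check. Of 14 measured markers of CA1 pyramidal neurons, 11 were higher in the hippocampus and none was lower, with a median difference of 1.58. They included *Spink8*, a protease inhibitor gene (4.91), *Gpr161*, an orphan receptor gene (3.88), and *Cyp7b1*, a hydroxylase of oxysterols and neurosteroids (1.4). *Ccn3* (0.18, adjusted p = 0.349) and *Mpped1* (-0.21, adjusted p = 0.594) did not pass. Of 21 dentate granule cell markers, 12 were higher and 1 was lower (median 0.63). *Prox1*, the homeodomain factor that specifies granule cells, lay at 7.07, 6.45, 6.51, 8.03 and 7.54 in the hippocampus and 3.58, 3.36, 3.71, 3.37 and 2.96 in the cortex, a difference of 3.73 (adjusted p = 2.25e-05). The regions did not overlap for this gene. *Lct*, the lactase gene, was higher by 5.10. *Calb1*, which encodes the calcium buffer calbindin of granule cells and also of upper layer neurons, stood at 10.35 ± 0.19 and 10.31 ± 0.096 (SD, n = 5 each, adjusted p = 0.923), and the granule cell gene *C1ql3* at 10.48 and 10.30.

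Markers of the smaller fields lay on both sides. Of 15 CA3 markers, 7 were higher and 1 was lower, with a median of 0.40. *St18*, a zinc finger gene, was higher by 3.67, *Homer3*, a postsynaptic scaffold gene, by 1.61, the kainate receptor subunit gene *Grik4* by 1.35 and the copine gene *Cpne4* by 1.17. *Coch*, an extracellular matrix gene listed among CA3 markers, was lower by 2.93. Of 13 CA2 markers, 6 were higher and 2 were lower (median 0.46). *Rgs14*, a regulator of G protein signalling that marks CA2, was higher by 1.90 and the calcium-binding protein gene *Necab2* by 1.93. The lower members were *Pcp4*, a calmodulin regulator also abundant in layer 5 (-1.04), and the phosphatase gene *Ptpn5* (-0.70), whose call was lost when any 1 of 7 of the arrays was left out. Of 9 markers of hilar mossy cells, only *Calb2*, the calretinin gene, was called (1.92).

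**Figure D2:**
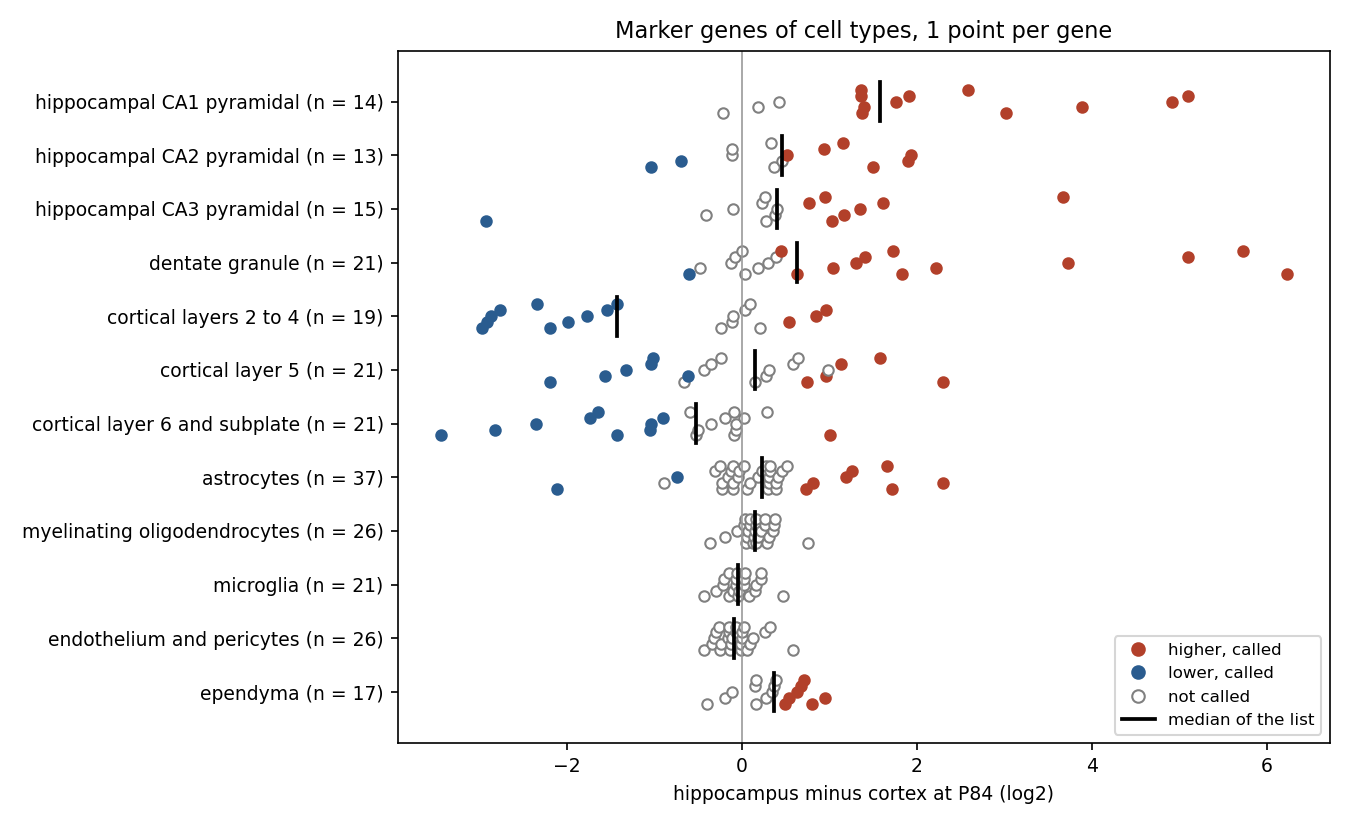
Difference between hippocampus and cortex at P84 (log2, horizontal axis) of the marker genes of 12 cell types, each point 1 gene, filled where the gene was called, with the median of each list as a black line. Markers of CA1 and dentate neurons lie mostly to the right of 0, those of layers 2 to 4 and 6 mostly to the left, and those of myelinating oligodendrocytes, microglia and endothelium close to 0 with none called.

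Transcription factors that pattern the hippocampal primordium or its neurons differed in both directions, 9 of 20 being higher and 4 lower (median 0.45). *Zbtb20*, a zinc finger factor needed for CA1 identity, lay at 10.41, 10.26, 10.08, 10.77 and 10.68 in the hippocampus and 7.61, 8.15, 7.93, 8.0 and 7.62 in the cortex, and all 9 of its probe sets were higher. The difference was 2.58 (standard error 0.15, adjusted p = 5.55e-06). *Lhx9*, a LIM homeodomain gene, was higher by 2.73, and the basic helix-loop-helix gene *Neurod6* by 1.25. *Tox3* (-1.17), a gene of the HMG box family, and the homeodomain genes *Meis2* (-1.14) and *Emx1* (-0.51) were lower. *Lhx2*, a LIM homeodomain selector of cortical identity, stood at 9.14 and 9.05 (adjusted p = 0.675).

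Markers of the upper cortical layers were mostly lower in the hippocampus. Of 19 measured markers of layers 2 to 4, 10 were lower and 3 were higher, with a median of -1.43. *Cux2*, the homeodomain factor of upper layer neurons, lay at 5.26, 4.89, 5.83, 5.38 and 6.98 in the hippocampus and 8.18, 8.97, 9.19, 8.55 and 8.32 in the cortex. The disomic hippocampus replicate 2 array was the highest of its region, yet below every cortex array, and the difference was -2.97 (adjusted p = 0.000572). *Stard8*, a RhoGAP gene, was lower by 2.87. The 3 members that were higher were *Bdnf*, the neurotrophin (0.95), *Kcnip2*, a potassium channel partner (0.84), and *Mdga1*, a cell adhesion gene at a low level (0.54). Of 21 markers of layer 6 and the subplate, 9 were lower and 1 was higher (median -0.52). *Ccn2*, a matricellular gene of the deepest cortical neurons, was lower by 3.44, *Foxp2*, a forkhead factor of corticothalamic neurons, by 2.83, the immunoglobulin gene *Ighm* by 2.35 (3 of its 11 probe sets called) and *Tbr1*, a T-box factor, by 1.74. *Hs3st4*, a heparan sulfate sulfotransferase gene, was the higher member (1.01), although its arrays overlapped between regions. *Nr4a2*, a nuclear receptor of subplate neurons, stood at 9.84 and 9.91 (adjusted p = 0.869).

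Layer 5 markers were divided, 5 of 21 being higher and 6 lower in the hippocampus (median 0.14), or 8 and 6 without the disomic hippocampus replicate 2 array. *Crym*, which encodes a thyroid hormone binding protein, was higher by 2.30 and *Bcl11b*, the zinc finger factor of subcortical projection neurons that is also made in hippocampal neurons, by 1.58. *Deptor*, an inhibitor of mTOR, was lower by 2.20, and the retinol binding protein gene *Rbp4* by 1.56.

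Genes of inhibitory interneurons were called in both directions. Of 34 measured, 4 were higher and 8 were lower in the hippocampus, with a median of -0.11. *Gad1*, a GABA-synthesising enzyme, lay at 11.38, 11.64, 11.53, 11.36 and 11.26 and at 11.35, 11.49, 11.51, 11.40 and 11.53, and the regions overlapped (difference -0.021, standard error 0.089, adjusted p = 0.954). *Crh*, the corticotropin-releasing hormone gene, lay at 4.69, 4.99, 5.08, 4.63 and 6.31 in the hippocampus, with the disomic hippocampus replicate 2 array highest, and at 8.63, 9.13, 9.02, 8.09 and 8.09 in the cortex. The difference was -3.45 (standard error 0.34). *Vip*, the peptide of one interneuron class, was lower by 2.02, and *Satb1*, a chromatin factor of other interneurons, by 1.15. *Kit*, a receptor tyrosine kinase, was higher by 1.69 with some overlap of arrays, and the neuronal nitric oxide synthase gene *Nos1* was higher by 1.30. Over 22 neuropeptide genes, 8 were lower and 2 were higher (median -0.25), the latter being *Nts* for neurotensin (1.88) and *Grp* for gastrin-releasing peptide (1.88). The enkephalin precursor gene *Penk* was lower by 1.37, and *Cck*, the cholecystokinin gene, stood at 11.82 and 11.90 (adjusted p = 0.913).

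Among the genes of the receptor lists, a pair of neuropeptide receptors had the highest and the lowest difference. *Npy2r*, a presynaptic receptor for neuropeptide Y, lay at 7.68, 7.77, 7.63, 7.89 and 7.26 in the hippocampus and at 3.13, 2.65, 3.00, 2.33 and 2.77 in the cortex (difference 4.87, adjusted p = 7.26e-08). *Cckbr*, the receptor for cholecystokinin whose ligand gene *Cck* was not called, lay at 3.42, 3.61, 3.82, 3.44 and 3.35 in the hippocampus and 7.76, 7.79, 7.82, 8.01 and 8.28 in the cortex, lower by 4.40 (adjusted p = 5.89e-08). Each gene thus separated the regions on every array, in opposite directions. Of all 28 neuropeptide receptor genes, 2 were higher and 4 were lower (median 0.061). The others called were the somatostatin receptor genes *Sstr4* (0.90) and *Sstr2* (-1.58), the corticotropin-releasing hormone receptor gene *Crhr1* (-1.32) and the kappa opioid receptor gene *Oprk1* (-0.90).

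Glutamate receptor genes differed at single subunits. Of 19 genes for AMPA and kainate receptor subunits and their partners, 4 were higher and 3 were lower in the hippocampus (median 0.025). *Gria1*, the GluA1 subunit, lay at 12.14, 11.88, 11.75, 12.05 and 12.09 in the hippocampus and 10.31, 10.44, 9.98, 10.24 and 10.13 in the cortex, higher by 1.76 (adjusted p = 9.16e-06). *Cnih2*, which encodes an AMPA receptor partner, was higher by 1.59. *Gria2*, the subunit that blocks calcium entry, stood at 11.70 and 11.44 (adjusted p = 0.362), while *Gria4* was lower by 1.06 and the kainate receptor gene *Grik3* by 1.37. None of the 6 measured NMDA receptor genes was called in limma (1 with an unadjusted p under 0.05), *Grin2b* having the highest mean (difference 0.64, standard error 0.23, adjusted p = 0.157). Among 6 metabotropic receptors, *Grm5* was higher (0.61) and *Grm8* was lower (-1.15).

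Among 12 measured GABA-A receptor subunits, 3 were higher and 3 were lower (median 0.0095). *Gabra5*, the subunit of extrasynaptic receptors on hippocampal pyramidal cells, lay at 10.38, 10.55, 10.44, 10.43 and 9.97 in the hippocampus and 8.38, 8.39, 8.74, 8.45 and 8.44 in the cortex. It was higher by 1.88 (standard error 0.12, adjusted p = 6.78e-06). *Gabra2* (0.80) and *Gabrb1* (0.57) were also higher, whereas *Gabrd*, the delta subunit of tonic inhibition, was lower by 2.19 and *Gabra3* by 1.67. Of 13 serotonin receptor genes, 4 were higher and 2 were lower (median 0.027), *Htr4* having the highest difference (2.51). *Htr1a*, the main inhibitory serotonin receptor of the hippocampus, had a difference of 1.5 that missed the criteria (adjusted p = 0.0625). It lay at 6.16, 5.90, 6.47, 6.65 and 4.29 in the hippocampus and 4.79, 3.97, 3.93, 4.92 and 4.35 in the cortex, the disomic hippocampus replicate 2 array lying among the cortex arrays. Of 10 acetylcholine receptor genes, 2 were higher and 1 was lower (median 0.09). *Chrna7*, the alpha7 nicotinic subunit, was higher by 1.76 and *Chrna4*, another nicotinic subunit, was lower by 1.02. Of 6 measured dopamine and noradrenaline receptor genes, 1 was higher and 2 were lower (median -0.071).

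Voltage-gated potassium channel genes and their partners differed often, 8 of 36 being higher and 13 lower in the hippocampus (median -0.38). The Kv4 partner gene *Dpp10* lay at 5.90, 6.04, 6.60, 4.98 and 6.04 in the hippocampus and 9.11, 9.25, 9.23, 9.15 and 9.38 in the cortex, lower by 3.31. Its close relative *Dpp6* was higher by 1.15, so that the related partners differed in opposite directions. *Kcnh5* (-2.81), *Kcnv1* (-2.47) and *Kcnf1* (-1.67) were lower. *Kcnab2* (0.99) and *Kcna4* (0.90) were higher. Among 17 HCN, K2P and inward rectifier channel genes, 1 was higher and 3 were lower (median -0.11), with *Kcnj4* (-1.79) and *Kcnj9* (-1.71) leading the lower ones. Of 28 genes for calcium-binding proteins and calmodulin kinases, 6 were higher and 10 were lower (median -0.15). *Hpca*, the hippocampal calcium sensor hippocalcin, was higher by 1.85, whereas *Necab3* was lower by 2.30, the kinase gene *Camk2d* by 1.82 and *Cabp1* by 1.55. The related genes of the Necab and Cabp families therefore lay on both sides.

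Genes of the presynaptic release machinery were more often lower, 11 of 35 against 3 higher, with a median of -0.28. The calcium sensors *Doc2b* (4.26) and *Doc2a* (-1.90) differed in opposite directions. *Stx1a*, a plasma membrane SNARE gene, lay at 8.81, 8.54, 8.98, 8.10 and 9.67 in the hippocampus and 10.58, 11.10, 11.19, 10.65 and 10.95 in the cortex, lower by 2.07. The priming factor gene *Unc13c* was lower by 1.55. *Snap25*, another SNARE gene, stood at 13.43 ± 0.23 and 13.71 ± 0.13 (SD, n = 5 each, adjusted p = 0.277).

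Adhesion and axon guidance genes were called in both directions. Of 24 cadherins and protocadherins, 7 were higher and 10 were lower (median -0.29), with *Pcdh19* (1.56) and *Cdh9* (1.38) on one side and *Cdh22* (-2.05), *Pcdh11x* (-1.95) and *Cdh6* (-1.77) on the other. Of 39 genes for semaphorins, slits, netrins and their receptors, 11 were higher and 7 were lower (median 0.23). Among ligands, the repellent gene *Slit1* was higher by 2.87 and *Sema5a* by 1.67, while *Sema3a* was lower by 3.35. Among receptors, *Nrp2* (1.89) and *Nrp1* (1.66), the neuropilins that bind class 3 semaphorins, were higher, and *Plxnd1* was lower by 2.73. Of 18 ephrin and Eph genes, 6 were higher, led by the receptors *Epha6* (2.81) and *Epha3* (1.34), and 3 were lower (median 0.079), led by the ligand *Efna5* (-2.47). In the Wnt pathway 1 of 41 genes was higher and 8 were lower (median 0.013). The secreted Wnt enhancer *Rspo1* (-2.76), *Dkkl1* (-2.17) and the ligand *Wnt9a* (-1.60) led the lower ones.

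**Figure D3:**
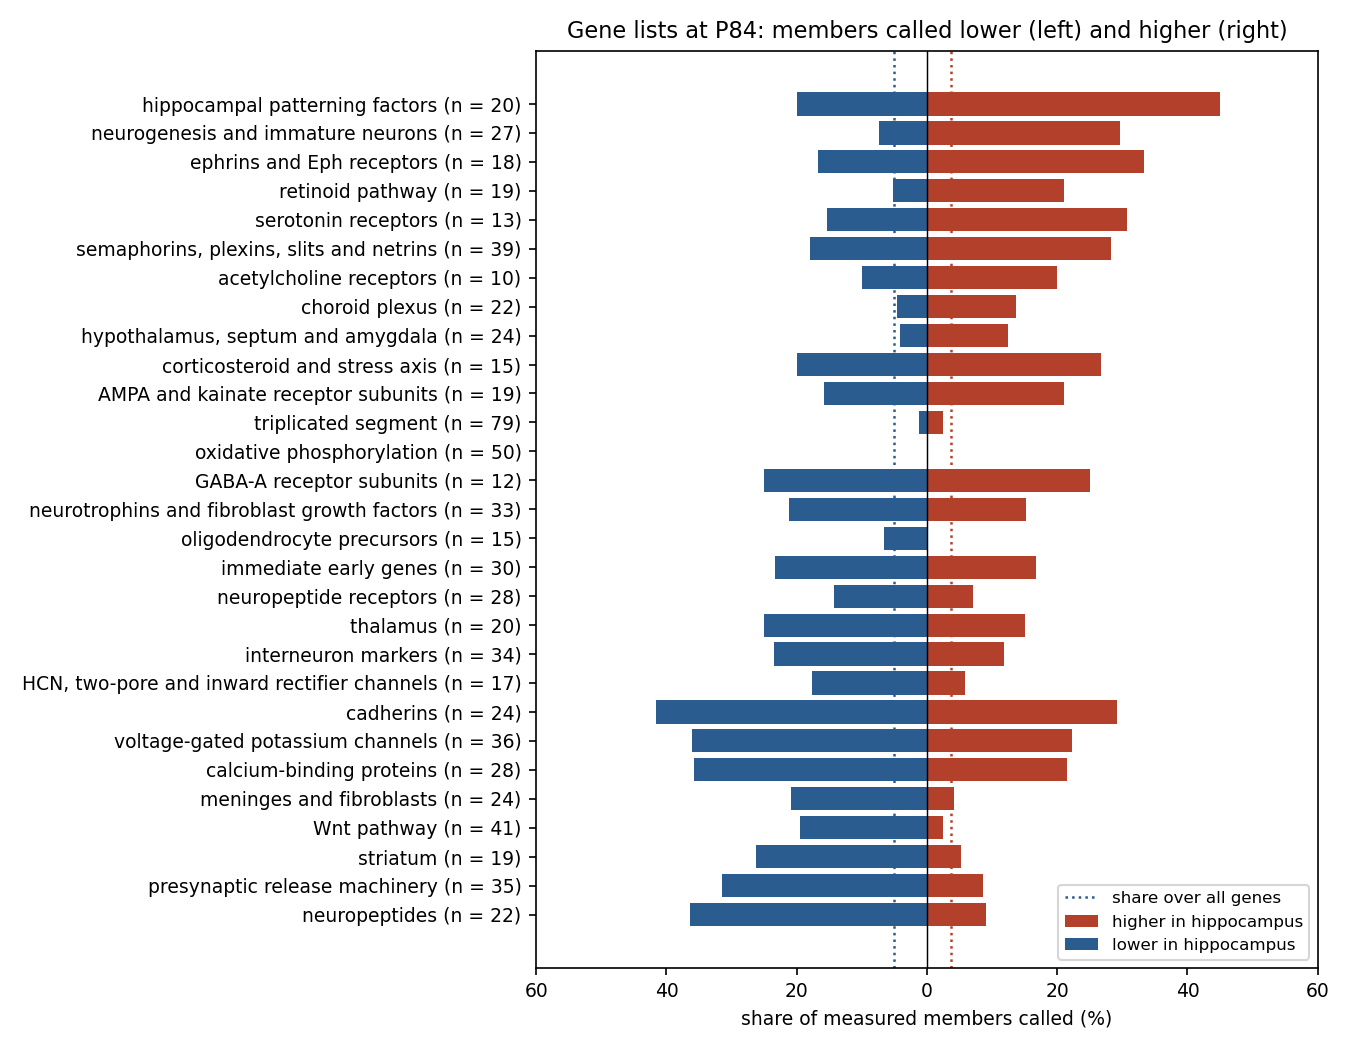
Share of the measured members of each gene list (horizontal axis, percent) that was called higher in the hippocampus (red, right) or lower (blue, left) at P84, with dotted lines at the shares over all genes (3.72% and 5.02%). Lists of under 10 members and those drawn gene by gene in the plot of marker genes are left out. Lists are ordered from top to bottom by the share of members higher minus the share lower. Neuropeptides and presynaptic genes stand at the bottom of that order, with 8 of 22 and 11 of 35 members lower, and oxidative phosphorylation has no member called.

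Immediate early genes, which neurons transcribe within minutes of activity, were split, 5 of 30 being higher and 7 lower in the hippocampus (median 0.026). *Egr1* lay at 9.78, 9.48, 9.38, 9.51 and 9.71 in the hippocampus and 10.88, 11.08, 10.67, 11.22 and 11.13 in the cortex, lower by 1.42 with no overlap. *Nptx2*, a secreted pentraxin, was lower by 1.94 and the scaffold gene *Homer1* by 1.11. *Nr4a3*, a nuclear receptor, lay at 8.79, 8.46, 8.72, 8.83 and 9.07 in the hippocampus and 6.28, 6.59, 5.74, 6.63 and 6.47 in the cortex, higher by 2.43. *Jun*, a subunit of AP-1 (1.83), and the prostaglandin synthase gene *Ptgs2* (1.57) were also higher. In the corticosteroid and stress axis, 4 of 15 genes were higher and 3 were lower (median 0.29). *Nr3c2*, the mineralocorticoid receptor, lay at 9.57, 9.57, 9.24, 9.50 and 9.17 in the hippocampus and 6.68, 6.48, 6.59, 6.19 and 6.01 in the cortex, higher by 3.02 (adjusted p = 3.22e-07). *Nr3c1*, the glucocorticoid receptor, stood at 8.69 and 9.16 (difference -0.47, adjusted p = 0.159). The receptor chaperone gene *Fkbp5*, itself a glucocorticoid target, was higher by 1.38 and the steroid-activating enzyme gene *Hsd11b1* by 0.96. In the retinoid pathway 4 of 19 genes were higher and 1 was lower (median 0.022).

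Of 33 genes for growth factors, their receptors and binding proteins, 5 were higher and 7 were lower (median -0.091). The receptor gene *Fgfr1* was higher by 1.56, while the insulin-like growth factor binding protein gene *Igfbp6* was lower by 3.43 and the GDNF family receptor gene *Gfra2* by 1.61. The adult dentate gyrus goes on making neurons, and of 27 genes of neurogenesis and immature neurons 8 were higher in the hippocampus and 2 were lower (median 0.13). The higher members included *Nnat* (1.66) and *Hopx* (1.26), which astrocytes also express. *Dcx*, which encodes the microtubule protein doublecortin of migrating neurons, went the other way. It lay at 7.39, 5.37, 6.43, 7.08 and 6.50 in the hippocampus and 8.17, 8.61, 8.36, 8.62 and 7.56 in the cortex, lower by 1.71 (adjusted p = 0.0155).

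Astrocyte genes were called in both directions, and no gene of endothelium and pericytes was called in limma. *Gfap*, the intermediate filament of astrocytes, lay at 9.58, 9.41, 9.31, 9.71 and 8.63 in the hippocampus and 7.60, 7.45, 7.48, 7.50 and 8.04 in the cortex, higher by 1.71 (standard error 0.20, adjusted p = 0.000493). The disomic hippocampus replicate 2 array was the lowest of its region, above the cortex arrays. Of 37 astrocyte genes 7 were higher and 2 were lower (median 0.22), and without the disomic hippocampus replicate 2 array 12 were higher and 2 were lower. The 7 included *Crym*, counted above with layer 5, and *Nnat* and *Hopx*, counted above with neurogenesis. *Chrdl1*, a secreted regulator of synapses, was lower by 2.12, and the other lower member was *Aldh1l1*. The glutamate transporter gene *Slc1a2* stood at 12.76 and 12.92 (adjusted p = 0.476). None of 26 genes of myelinating oligodendrocytes, 21 of microglia, 26 of endothelium and pericytes and 50 of oxidative phosphorylation was called in limma, and 3, 0, 1 and 1 of them had an unadjusted p under 0.05. Without the disomic hippocampus replicate 2 array 2 myelin genes and 1 microglial gene were called. Of 15 genes of oligodendrocyte precursors 0 were higher and 1 was lower (median 0.14), and none of 5 genes of red blood cells was called in limma (0 with an unadjusted p under 0.05). *Mbp*, the myelin basic protein gene, lay at 13.62, 13.62, 13.59, 13.70 and 13.60 in the hippocampus and at 13.62, 13.51, 13.49, 13.52 and 13.54 in the cortex, and the regions overlapped.

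Genes of neighbouring tissues differed to unequal degrees. *Ttr*, the transthyretin gene of the choroid plexus, lay at 9.66, 9.77, 8.86, 10.81 and 8.03 in the hippocampus and at 2.62, 9.28, 7.21, 4.56 and 4.03 in the cortex. It was high on every hippocampus array and varied widely among cortex arrays, and its difference of 3.89 (standard error 1.10) was not called (adjusted p = 0.0652). Of 22 choroid plexus genes 3 were higher and 1 was lower (median 0.035), 15 lay below the array medians in both regions, and the summed linear level ran from 431 to 1958 on hippocampus arrays and from 153 to 785 on cortex arrays. Of 17 genes of ependyma, the ciliated lining of the ventricles, 7 were higher (median 0.37) and none was lower, by at most 0.95 for *Ccdc153*, a gene of motile cilia. Most ependymal genes were at low levels, as 8 lay below the array medians in both regions and only 2 had a mean of at least 5 (log2). The median difference of those 2 was -0.15. Summed levels of the list overlapped, at 247 to 404 in the hippocampus and 242 to 358 in the cortex. Of 24 genes of meninges 5 were lower and 1 was higher (median -0.23), with summed levels of 4260 to 6741 in the hippocampus and 6558 to 7650 in the cortex. *Fmod*, a matrix proteoglycan, was lower by 2.37, a call that was lost when any 1 of 4 arrays was left out. Striatal genes were lower in 5 of 19 cases and higher in 1 (median -0.18), with summed levels of 1541 to 2215 in the hippocampus and 2247 to 2849 in the cortex. They included the dopamine receptor gene *Drd1* (-1.58) and the phosphatase inhibitor gene *Ppp1r1b* (-1.46). Of 20 thalamic genes 3 were higher and 5 were lower (median -0.089), and of 24 genes of hypothalamus, septum and amygdala 3 were higher and 1 was lower (median 0.013). Some members were counted in more than 1 list. The 3 higher thalamic genes, *Lhx9*, *Calb2* and *Prkcd*, were also in the patterning, mossy cell and CA3 lists. *Actn2*, the higher striatal gene, and *Dcn*, the higher meningeal gene, were also listed as CA2 and CA1 markers. *Sostdc1*, among the higher choroid plexus genes, was also a listed CA2 marker. The part of these tissues in the regional differences was not tested.

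Whether the regional difference depends on the genotype was tested by the region by genotype term. No probe set was called in limma (0% of 45101), while 5068 had an unadjusted p under 0.05. The count rose to 1631 when the disomic hippocampus replicate 1 array was left out, which leaves replicate 2, the array that stands apart, as the only disomic hippocampus. It was 0 without replicate 2, with 2213 unadjusted. Within Ts1Cje mice *Dsp* differed by 6.03 and *Fhod3* by -4.76, and within disomic mice by 6.53 and -4.51. Of 79 measured genes of the triplicated segment, 2 were higher and 1 was lower (median 0.027), or 3 and 3 without the disomic hippocampus replicate 2 array. *Pcp4* lay at 11.39, 11.47, 11.58, 10.73 and 11.08 in the hippocampus and 12.33, 12.48, 12.76, 11.82 and 12.08 in the cortex, a difference of -1.04 (adjusted p = 0.000236). *B3galt5*, a galactosyltransferase, was higher by 2.03, by 2.40 within Ts1Cje and by 1.48 within disomic mice. *Kcnj6*, a G protein-gated potassium channel gene, was higher at 1 of its 5 probe sets by 0.71, by 0.72 and by 0.68 in the same order. The region by genotype term of these 3 genes had adjusted p-values of 0.993, 0.439 and 0.972, in that order.

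The regional difference was set beside that of P30, measured in other mice and fitted together with all ages as 16 group means. At P30, 797 genes were higher (4.38%) and 787 were lower (4.33%) in the hippocampus. Of the 677 genes higher at P84, 677 had the same sign at P30 and 538 were called there, or 79.5% of the P84 genes and 67.5% of the P30 genes. Of the 914 lower genes, 905 had the same sign and 620 were called, or 67.8% and 78.8%. None was called in the opposite direction. Of the genes named for P84, *Dcx*, *Emx1*, *Fmod*, *Grm5*, *Kcnj6*, *Nptx2* and *Ptpn5* were called at P84 and not at P30, which does not show that the ages differ. Across these 1591 genes, which are not independent and share the normalization of the arrays, the differences of the 2 ages had a Pearson correlation of 0.977. The genes were selected by their P84 difference, which can by itself raise a correlation with that difference at any age. At P1, where 990 of the 18194 genes were called in either direction (5.44%), 588 higher and 402 lower, the correlation was 0.45. Of the 677 genes 162 were called in the same direction at P1 and 21 in the opposite one, and of the 914 genes 156 and 42. The opposite calls are to be set beside the P1 counts over all genes and are not read as a result.

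Between P84 and P30 the regional difference itself changed at 2 probe sets (0.00443%). *Tnnc1*, which encodes troponin C of slow muscle, differed by -2.76 at P84 and by -4.47 at P30, a change of 1.71 (adjusted p = 0.0063). *Hspa1b*, an inducible heat shock protein gene, differed by 0.42 and 1.62, a change of -1.20 (adjusted p = 0.0207). At P84 *Hspa1b* lay at 7.95, 7.86, 7.93, 8.33 and 8.91 in the hippocampus and 7.27, 7.48, 7.70, 8.30 and 8.11 in the cortex. Leaving out 1 array removed the call of *Tnnc1* for disomic P84 cerebral cortex replicate 2 and of *Hspa1b* for any 1 of 10 of the 22 arrays of both ages.

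**Figure D4:**
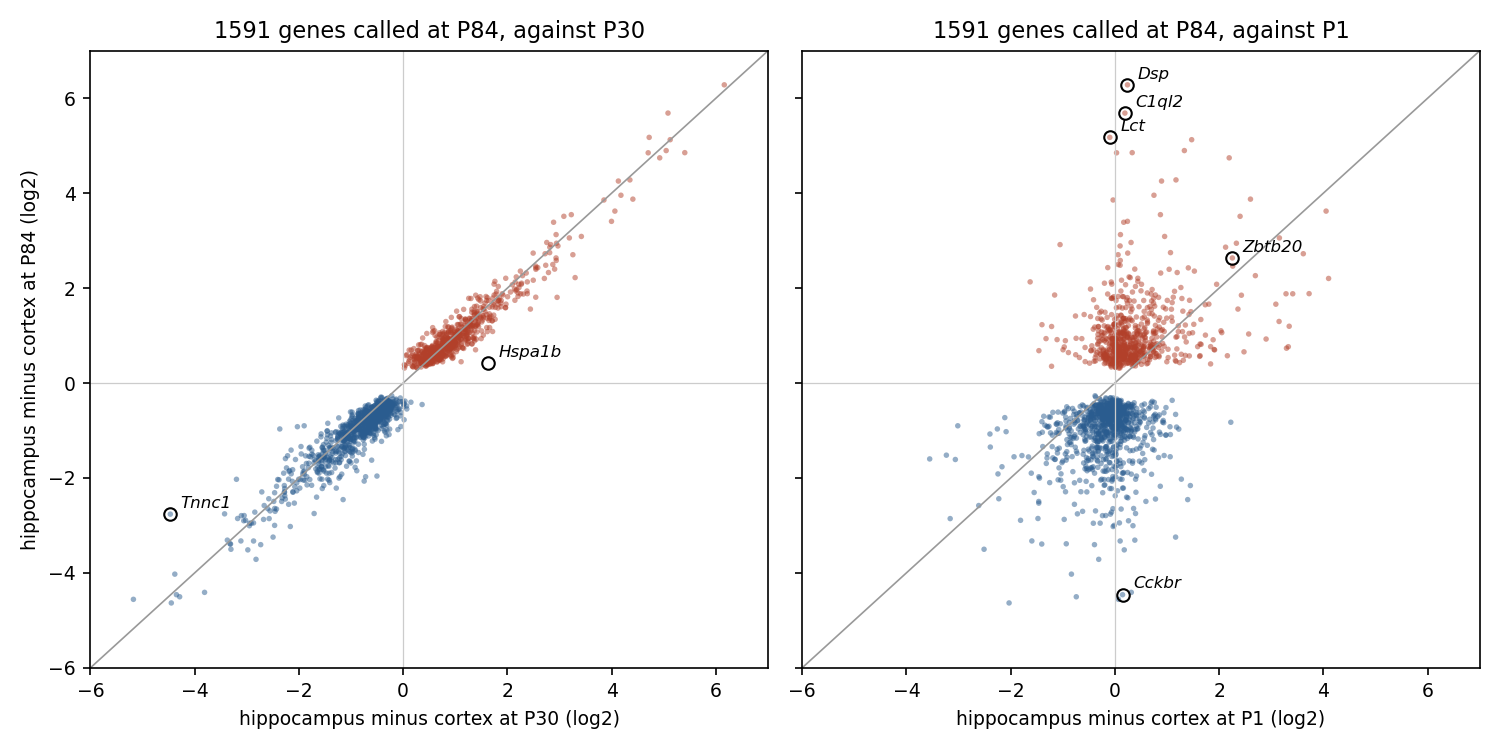
Difference between hippocampus and cortex at P84 (vertical axis, log2) against that at P30 (left) and at P1 (right, log2) for the 1591 genes called at P84, each point 1 gene, red where higher and blue where lower in the hippocampus at P84, with the line of equal differences. The points mostly follow the line at P30 and lie mostly near 0 on the horizontal axis at P1. Circles on the left were added for *Tnnc1* and *Hspa1b*, whose change between P30 and P84 was called. Other genes also lie off the line, such as *Nptx2* (-1.96 at P84 and -0.50 at P30).

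Between P84 and P1 the regional difference changed at 1570 probe sets (3.48%), 613 toward the hippocampus and 957 toward the cortex. Dentate genes were among the leaders. *Dsp* differed by 0.24 at P1, 5.37 at P15, 6.16 at P30 and 6.28 at P84, and *C1ql2* by 0.19, 3.06, 5.08 and 5.69. The changes from P1 to P84 were 6.04 (adjusted p = 3.91e-18) and 5.5 (adjusted p = 1.18e-16). *Lct* (5.27), *Pkp2* (4.52), *Myo5b* (3.97) and *Npy2r* (3.56) changed in the same direction. Toward the cortex, *Cckbr* differed by 0.15 at P1, -4.31 at P15, -4.35 at P30 and -4.46 at P84. *Rspo1* differed later, with 0.40 at P1, -0.0092 at P15, -1.71 at P30 and -2.75 at P84. *Exph5* (-4.72), an effector of vesicle traffic, *Myl4* (-4.63), a myosin light chain gene, *Rasgef1b* (-4.41) and *Lamp5* (-3.16) also changed toward the cortex. Other genes had their adult difference early, *Zbtb20* differing by 2.25 at P1 and 2.63 at P84.

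**Figure D5:**
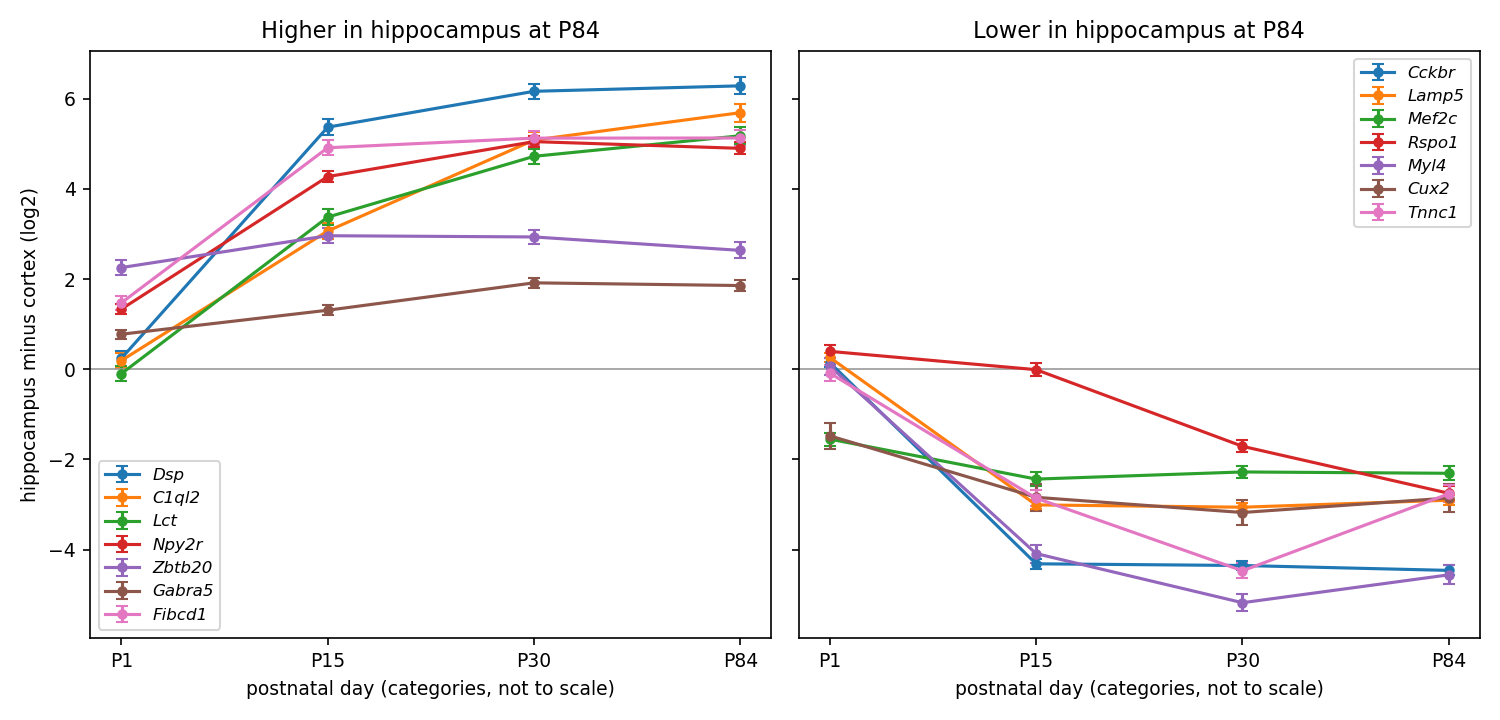
Difference between hippocampus and cortex (log2, vertical axis) at P1, P15, P30 and P84 for 7 genes higher (left) and 7 lower (right) in the hippocampus at P84, as fitted means with standard errors. *Dsp*, *C1ql2* and *Lct* start near 0 at P1 and exceed 5 at P84, *Zbtb20* starts at 2.25, and *Rspo1* lies at 0.40 at P1 and near 0 at P15.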

How the data were processed

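Total RNA of each region was purified with DNase treatment, amplified by a two-cycle labelling procedure and hybridised to Affymetrix mouse genome expression arrays. The authors background-corrected, normalized and summarised the scanner intensities with GCRMA (version not given in the sources used here) and deposited 1 table of log2 expression values for 45101 probe sets and 72 arrays, which was used as deposited. Groups came from the labels. The platform annotation gave 1 symbol for 34958 probe sets, several for 932 and none for 9211, and 34754 symbols could be matched by gene identifier.

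Linear models (limma 3.58.1, R 4.3.3, moderated with eBayes) were fitted on the 10 P84 arrays with region and genotype as terms (7 residual degrees of freedom), or, for comparisons of ages, as 16 group means over 45 arrays, without the dim arrays and 1 displaced P15 disomic hippocampus array. The region by genotype term at P84 was fitted on the 10 arrays. Calls needed a moderated t of at least 4 in size, the threshold of the methods, and an adjusted p of at most 0.05. For each gene the brightest of its probe sets over the 10 arrays was taken, and listed genes without a probe set of 1 symbol were left out. The number of arrays limits the precision. In simulated data of the same size, a change of 2 (log2) was recovered at 62 of 66 probe sets, a change of 1 at 37 of 67 and a change of 0.5 at 10 of 67, with 6 false calls. The changed probe sets all had a mean of at least 5 (log2), and the noise was normal and independent between probe sets. Far fewer probe sets were changed than were called in the data, which makes the adjusted p stricter. These shares therefore do not give the recovery in the comparison itself.

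The text names the 15 leading genes in each direction as described, up to 4 called members of each gene list in each direction and up to 2 members not called, and up to 6 genes in each direction for changes between ages. The regions compared, the genes and the lists were chosen with earlier results of these data known. The samples are separate mice within a region, and p-values measure the spread between them. Alternatives covered the filter on low values, normalization, blocks, array weights, each genotype alone, the dim arrays and leaving out each array.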

Additional observations from a re-analysis of the deposited data

Results flagged for a closer look

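Among 68 groups of 5 arrays, made of the 30 leading genes and 4 cerebellar genes in both regions, 6 held an array whose gap to the nearest of the others exceeded 0.71 of the range of the group, which chance gives in about 1 of 20 groups. The disomic hippocampus replicate 2 array was apart for *Crh* (6.31, others 4.63 to 5.08), *Pcdh20* (8.05, others 8.88 to 9.20) and *Tanc1* (8.27, others 8.94 to 9.16), in each case toward the cortex level. The Ts1Cje hippocampus replicate 2 array was apart for *Lamp5* (7.5, others 7.82 to 7.92) and *Rims3* (5.22, others 5.63 to 5.68). The Ts1Cje cortex replicate 1 array was apart for *Shisa6* (4.62, others 5.07 to 5.24). The cause was not tested.

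The regional difference changed with age by a test of the change itself. From P30 to P84 it changed at 2 probe sets, by -1.20 for *Hspa1b* and by 1.71 for *Tnnc1*, and neither call held in every repeat with 1 array left out. From P1 to P84 it changed at 1570 probe sets. Those with the largest moderated t were *Dsp* (6.04), *C1ql2* (5.5), *Lct* (5.27), *Pkp2* (4.52), *Myo5b* (3.97) and *Npy2r* (3.56) toward the hippocampus and *Exph5* (-4.72), *Myl4* (-4.63), *Cckbr* (-4.61), *Rasgef1b* (-4.41), *Lamp5* (-3.16) and *Rspo1* (-3.15) toward the cortex.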

How the results depend on the processing

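The count of 2925 probe sets called between regions at P84 was 1525 of 13790 with a mean of at least 5. It was 1175 with a difference of at least 1 (log2) and 1606 with 1 probe set per gene. Each of these is by construction a stricter criterion or fewer probe sets. In disomic mice alone, with the spread pooled over both genotypes, the count was 1486, and in Ts1Cje mice alone it was 3002. Fewer arrays thus need not lower the count. With 1 array left out it ran from 2507 without disomic hippocampus replicate 1 to 3756 without disomic hippocampus replicate 2. The other 11 settings, Ts1Cje mice alone included, stayed within 1.5 times the count of 2925. With the replicate number as a block it was 2795. Deviations of same-numbered arrays from their group means had r = 0.48 in disomic mice and r = -0.078, -0.056 and 0.036 in Ts1Cje mice. With 2 disomic arrays per region the deviations mirror each other, so the disomic pairs give a single value. The Ts1Cje deviations are also tied by their means. This check cannot decide whether the numbers mark mice. They were not used to pair arrays because no source says that they do. Without genotype as a term, 1211 probe sets were higher and 1640 lower. Region by genotype calls numbered 0, 1 in the fit of 16 group means, 1 without disomic cortex replicate 2 and 1631 without disomic hippocampus replicate 1. For P84 against P30, 2 calls became 3 with the dim arrays kept or with both ages fitted alone and 1 with a mean of at least 5, and 0 to 9 without 1 array. For P84 against P1, 1570 became 804 with a mean of at least 5 and 1279 to 1637 without 1 array. Over 210 named genes called at P84, 135 kept the call in every setting, and 4688 of 4981 single repeats kept call and direction, 293 lost the call and 0 reversed. Of 92 repeats of a list's total of called members, 10 moved beyond 1.5 times the total, and others moved by less. The cause of the changes was not tested.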
